A study of Mus musculus with 18 samples.

Results

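The 9 genes described here, Ppbp, Pf4, Tubb1, Gp9, Gp5, Gp6, Gp1bb, Itga2b and Clec1b, are classical genes of megakaryocytes and platelets. They were taken by symbol from a table of 46583 genes, and were chosen by the CPM of Ppbp, which had been seen to be nearly absent from the apex of the control cochlea, with 8 other known platelet genes beside it. Each symbol stood on a row of its own, and all 9 were among the 17901 genes that passed the filter on low counts. The members are set out below for whether the other 8 follow Ppbp over the 6 groups of the study.

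The data are bulk RNA sequencing counts from the cochlea of 4-week-old mice, cut into apex, middle and base. The groups were Fst cKO apex, Fst cKO middle, Fst cKO base, control apex, control middle and control base. The cKO mice are labelled as a conditional knock-out of Fst, the gene of the activin-binding protein follistatin, and the controls are labelled WT and untreated. The driver of the deletion is not given in the labels. Tissue of each region and genotype was pooled, and the RNA of each pool was divided into 3 technical libraries, so a group holds n = 1 pool and every SD, SE and p-value below covers the spread between libraries only. Genotype and pool cannot be told apart. In bulk RNA, fewer cells of a type and less RNA per cell cannot be told apart either.

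Megakaryocytes are giant polyploid cells of the bone marrow that shed platelets into the blood. GATA1 with its partner FOG1, and ETS factors such as FLI1, drive the genes of their granules and adhesion receptors. The platelet receptors act in sequence at an injured vessel: a von Willebrand factor receptor tethers the cell, collagen and podoplanin receptors signal, and the fibrinogen receptor then links platelets together. The cochlea lies inside bone, and its vessels carry blood.

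Promoters of 4 members are shown because they stand at different places in the pattern described below: Ppbp and Gp9 were the lowest in control apex, Gp5 was intermediate and Itga2b did not follow. Each sequence is the 250 bases before the RefSeq start of the gene on GRCm38.p6, read 5′ to 3′ on the strand of the gene. Capitals mark the words searched, on either strand, so that some appear as reverse complements. For GATA factors they were AGATAA together with its variant TGATAA, and AGATAG together with its variant TGATAG. For ETS factors they were AGGAAG together with its variant CGGAAG. The Ppbp promoter (chr5:90768268-90768517, plus strand) held no such word, Gp9 (chr6:87777820-87778069, plus strand) an ETS word 16 to 11 bases before the start, Gp5 (chr16:30310782-30311031, minus strand) 3 GATA words and an ETS word, and Itga2b (chr11:102469884-102470133, minus strand) 2 ETS words.
Ppbp: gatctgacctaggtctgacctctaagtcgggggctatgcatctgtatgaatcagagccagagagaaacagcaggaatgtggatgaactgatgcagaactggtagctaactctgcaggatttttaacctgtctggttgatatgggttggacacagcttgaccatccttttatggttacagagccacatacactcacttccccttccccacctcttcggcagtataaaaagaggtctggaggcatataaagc
Gp9: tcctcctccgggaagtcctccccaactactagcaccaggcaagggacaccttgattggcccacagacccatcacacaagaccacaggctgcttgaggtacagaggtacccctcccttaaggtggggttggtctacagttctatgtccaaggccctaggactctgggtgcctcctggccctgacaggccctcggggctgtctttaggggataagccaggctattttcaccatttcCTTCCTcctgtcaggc
Gp5: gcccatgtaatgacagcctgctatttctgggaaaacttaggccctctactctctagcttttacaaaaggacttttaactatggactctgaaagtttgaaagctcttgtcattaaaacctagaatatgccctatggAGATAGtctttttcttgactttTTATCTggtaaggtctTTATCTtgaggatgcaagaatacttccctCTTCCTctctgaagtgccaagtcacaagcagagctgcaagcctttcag
Itga2b: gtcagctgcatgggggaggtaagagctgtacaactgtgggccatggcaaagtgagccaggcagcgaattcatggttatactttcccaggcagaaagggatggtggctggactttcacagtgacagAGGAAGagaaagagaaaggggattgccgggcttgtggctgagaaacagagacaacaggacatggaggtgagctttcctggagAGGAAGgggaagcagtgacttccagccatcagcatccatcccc
RefSeq promoters were matched for 9 of 9 members. A GATA word was present in 4 of them, Gp5, Gp6, Gp1bb and Clec1b, and in 26.5% of 32851 promoters of the same length. An ETS word was present in 6, Pf4, Tubb1, Gp9, Gp5, Gp1bb and Itga2b, and in 39.2% of all promoters. Both kinds were present in 2 members, Gp5 and Gp1bb, and in 9.21% of all promoters.

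Library totals ran from 24446760 to 33732726 counts. Fst, the targeted gene, averaged 9.84 ± 0.395 CPM (counts scaled to a library total of 1000000) in cKO apex, 2.99 ± 0.348 in cKO middle and 1.86 ± 0.122 in cKO base, against 24.4 ± 0.882, 6.37 ± 0.573 and 2.17 ± 0.211 CPM in control apex, middle and base (SD, n = 3 libraries each). Cochlear genes were present in every library: Coch, a protein of the cochlear matrix, at 17656 to 23913 CPM, and Ocm, a calcium-binding protein of outer hair cells, at 36.6 to 159.8 CPM. The cKO base pool stood apart in genes of cerebellar neurons, whose 6 genes summed to 4.34 to 4.57 CPM in cKO apex, 20.6 to 22.1 in cKO middle and 199 to 205 in cKO base, against 6.55 to 6.66, 10.8 to 12.2 and 18.3 to 18.7 CPM in control apex, middle and base. Of them, Gabra6 was at 0 in cKO apex, control apex and control base.

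Ppbp encodes pro-platelet basic protein, a CXC chemokine precursor of the platelet alpha granule. It lies at chr5:90768518-90770063 on the plus strand (GRCm38) and ends 2372 bases before Pf4. Its levels were 6.43, 6.59 and 6.03 CPM in the cKO apex libraries, 6.58, 6.23 and 7.14 in cKO middle and 8.04, 7.51 and 7.97 in cKO base, against 0.245, 0.104 and 0.243 CPM in control apex, 17.1, 17.2 and 15.6 in control middle and 7.07, 7.54 and 6.26 in control base. The control apex values rest on 7, 3 and 7 counts. Control apex therefore lay below every other library and control middle above every other library, while neighbours among the remaining 4 pools overlapped. These levels chose the gene and are given without a test.

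Pf4, platelet factor 4, is the other abundant alpha granule chemokine and the neighbour of Ppbp (chr5:90772435-90773383, plus strand). It had 4.31, 3.92 and 2.89 CPM in cKO apex, 4.2, 3.91 and 4.15 in cKO middle and 4.21, 4.0 and 5.08 in cKO base, against 1.57, 1.46 and 1.43 CPM in control apex, 7.82, 8.03 and 6.97 in control middle and 3.25, 3.98 and 3.52 in control base. The order of lowest and highest pool was that of Ppbp, with control apex and control middle both clear of the other libraries, but the control apex mean was 19.5% of the control middle mean for Pf4 and 1.19% for Ppbp. The ratio of Ppbp to Pf4 counts was accordingly 1.75 ± 0.306 in cKO apex, 1.63 ± 0.0830 in cKO middle and 1.78 ± 0.187 in cKO base, against 0.133 ± 0.0535 in control apex, 2.19 ± 0.0478 in control middle and 1.95 ± 0.205 in control base. The other CXC chemokine genes of this stretch of chromosome 5, Cxcl5, Cxcl3 and Cxcl15, had between 0 and 12 counts per library.

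Tubb1 encodes the beta tubulin of the platelet marginal band (chr2:174450695-174457882, plus strand). It had 2.75, 2.18 and 2.07 CPM in cKO apex, 1.04, 1.36 and 1.33 in cKO middle and 2.44, 1.77 and 1.96 in cKO base, against 0.105, 0.209 and 0.313 CPM in control apex, 4.08, 4.41 and 3.31 in control middle and 2.06, 1.46 and 1.96 in control base. Again control apex was below and control middle above all other libraries, and cKO middle stood alone as the second lowest pool.

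Gp9 and Gp5 encode glycoproteins IX and V, which join glycoprotein Ib in the von Willebrand factor receptor. Gp9 (chr6:87778072-87779768, plus strand) had 0.892, 0.815 and 1.15 CPM in cKO apex, 0.417, 1.10 and 0.593 in cKO middle and 0.773, 0.962 and 1.0 in cKO base, against 0, 0.0348 and 0.0695 CPM in control apex, 2.08, 1.52 and 1.76 in control middle and 0.836, 0.680 and 0.614 in control base. The control apex libraries held 0, 1 and 2 counts of it. Over the summed libraries cKO apex was 27.3-fold control apex, with an exact 95% interval of 9.0 to 135 that covers counting error only. The rule used control apex, so the interval is no test of a difference and shows only how loosely few counts fix the ratio. Gp5 (chr16:30307685-30310779, minus strand) had 1.6, 1.3 and 1.44 CPM in cKO apex, 1.013, 1.42 and 1.22 in cKO middle and 0.889, 1.12 and 1.35 in cKO base, against 0.210, 0.278 and 0.417 CPM in control apex, 2.32, 2.82 and 2.66 in control middle and 1.06, 0.971 and 0.654 in control base. For both glycoprotein genes the control apex libraries were the lowest and the control middle libraries the highest, without overlap.

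Gp1bb, the beta chain of glycoprotein Ib, departed in part. It had 1.85, 2.21 and 2.30 CPM in cKO apex, 2.12, 1.92 and 2.04 in cKO middle and 2.47, 2.53 and 2.39 in cKO base, against 0.960, 0.986 and 1.60 CPM in control apex, 2.64, 2.93 and 3.04 in control middle and 1.32, 1.14 and 1.71 in control base. Control apex overlapped control base and its mean was 41.2% of the control middle mean. The level is uncertain, because 92.9% of the exonic bases of Gp1bb (chr16:18620317-18622403, minus strand) are shared with other genes, 1902 of 2087 bases with Sept5, a septin gene on the same strand. Sept5 averaged 81.8, 81.4 and 68.6 CPM in cKO apex, middle and base, against 88.2, 78.1 and 70.9 CPM in control apex, middle and base, and its part in the Gp1bb counts was not tested.

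Clec1b encodes CLEC-2, the platelet receptor for podoplanin (chr6:129397297-129409335, plus strand), with 184 exonic bases, 3.61%, shared with Clec9a. It had 0.744, 0.518 and 0.592 CPM in cKO apex, 0.774, 0.534 and 0.800 in cKO middle and 0.851, 0.616 and 0.693 in cKO base, against 0.0699, 0.139 and 0.0695 CPM in control apex, 1.33, 1.14 and 1.35 in control middle and 0.643, 0.680 and 0.491 in control base. The 3 control apex libraries were clear of all others below, the 3 control middle libraries above.

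Gp6, glycoprotein VI, the platelet collagen receptor (chr7:4363965-4397744, minus strand), was the rarest member, with 113 counts in all 18 libraries. It had 0.260, 0.185 and 0.111 CPM in cKO apex, 0.238, 0.0890 and 0.237 in cKO middle and 0.464, 0.192 and 0.462 in cKO base, against 0.0349, 0 and 0 CPM in control apex, 0.450, 0.482 and 0.276 in control middle and 0.161, 0.227 and 0.0818 in control base. Control apex held 1 count of it and lay below every other library, but control middle and cKO base overlapped. Over the summed libraries cKO apex was 16.0-fold control apex, with an exact 95% interval of 2.46 to 672. For Gp6 too, the interval is set against the pool the rule used, and nothing is read from it.

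Itga2b, the integrin alpha IIb chain that forms the fibrinogen receptor with Itgb3 and that early blood progenitors also carry, did not follow. It (chr11:102453297-102470122, minus strand) had 19.6, 17.3 and 16.6 CPM in cKO apex, 14.3, 14.4 and 14.8 in cKO middle and 15.3, 15.6 and 15.1 in cKO base, against 15.6, 16.4 and 16.3 CPM in control apex, 19.9, 19.1 and 19.2 in control middle and 16.0, 16.2 and 15.8 in control base. Its lowest pool was cKO middle, and the control apex mean was 82.8% of the control middle mean. With 8554 counts over the libraries it was the most deeply counted member.

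**Figure D1:**
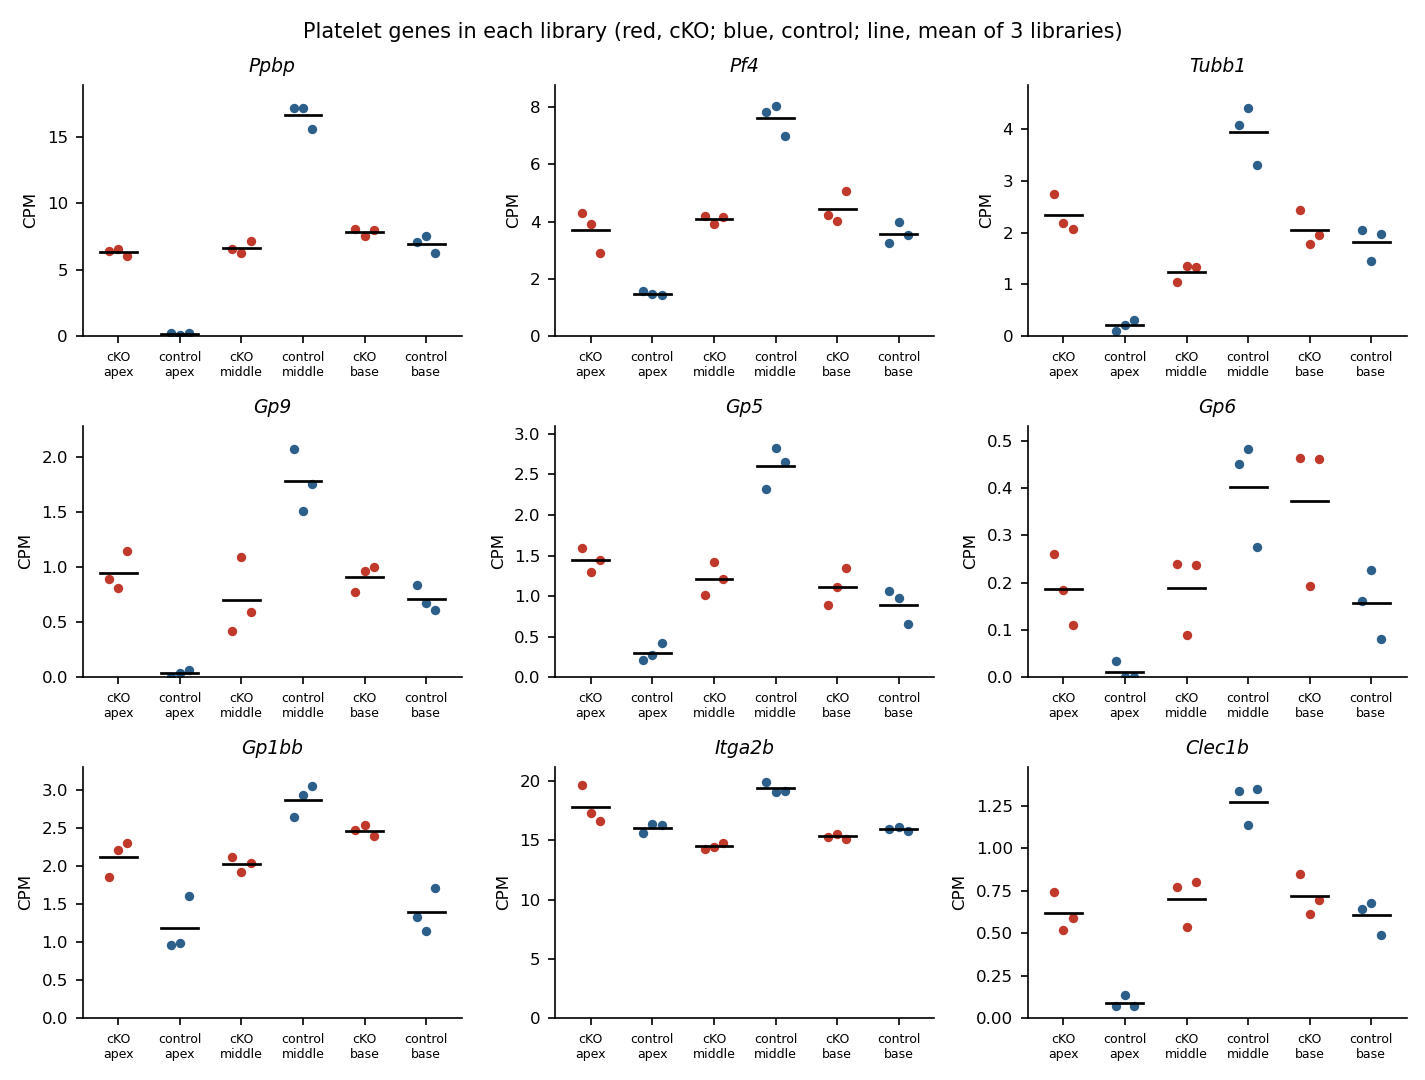
CPM of the 9 genes (vertical axes, each starting at 0) in the 18 libraries, by group, with cKO in red left of control in blue for each region and a line at the mean of 3 libraries. The control apex points lie below every other point for 7 of 9 genes, with overlap for Gp1bb and Itga2b.

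Control apex lay below every other library for 7 of 9 members, all but Gp1bb and Itga2b, and 6.84% of all tested genes did so. The rule used this pool for Ppbp, and nothing is read from that count. Relative to control middle, the control apex mean was 1.19% for Ppbp, 1.95% for Gp9, 2.89% for Gp6, 5.31% for Tubb1, 7.30% for Clec1b and 11.6% for Gp5, beside the values of Pf4, Gp1bb and Itga2b given above. The median of the 9 members was 53.3% in cKO apex, 46.8% in cKO middle and 56.6% in cKO base, against 7.30% in control apex and 46.4% in control base, where the medians of all genes with counts in control middle lay between 98.1% and 103%. The member median includes Ppbp, and nothing is read from its value in control apex. Control middle lay above every other library for 7 of 9 members, all but Gp6 and Itga2b, and 1.59% of all tested genes did so. Ppbp, whose levels over the pools chose it, is among the 7. Gp6, among the 9, passed the filter on low counts only through control middle and cKO base. Nothing is read from that count either. In mean CPM, control middle was the highest pool for 9 of 9 members and control apex the lowest for 8 of 9, Ppbp included in both. The share of all tested genes with such an order of means is not given, and nothing is read from these counts.

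**Figure D2:**
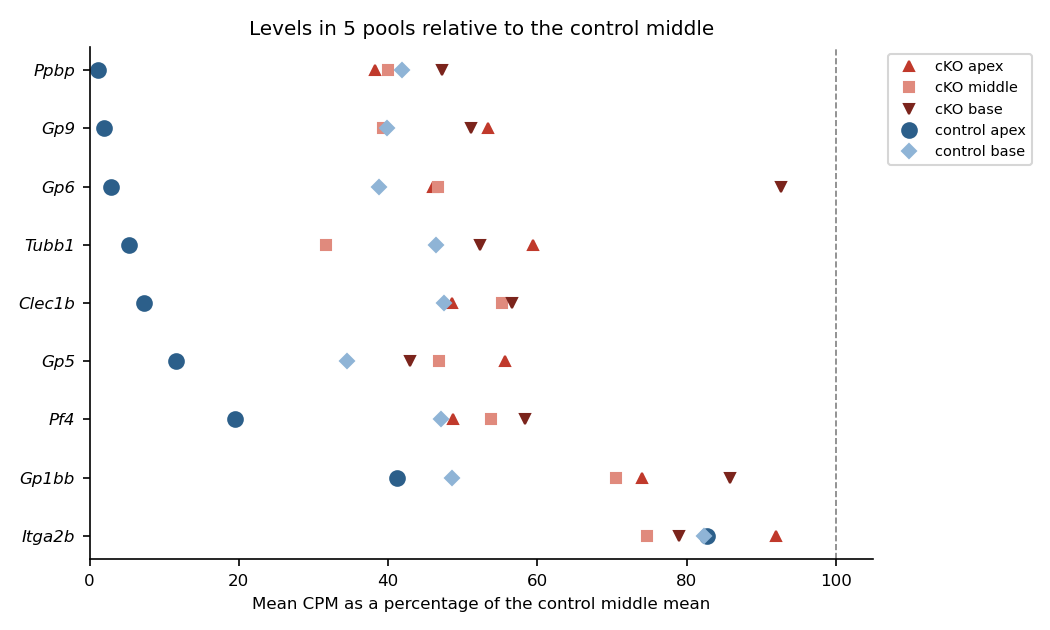
Mean CPM of each gene in 5 pools as a percentage of its control middle mean (horizontal axis; dashed line at 100%), with genes ordered by their control apex value. The control apex circles run between 1.19% for Ppbp and 82.8% for Itga2b, while the other pools lie between 31.7% and 92.6%.

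Per length the order of the genes was another. In the authors' FPKM, control apex averaged 10.1 for Itga2b, 3.59 for Pf4, 0.871 for Gp1bb, 0.214 for Ppbp and 0.166 for Tubb1, and 0.146 or less for the other 4 members. In control middle Pf4 averaged 18.6 FPKM, Ppbp 18.4, Itga2b 10.5 and Tubb1 3.21, with the other 5 between 0.415 and 2.55. Itga2b was thus below both chemokines per length in control middle and above them in control apex. For Gp1bb the highest pool in mean FPKM was cKO base, at 1.81 ± 0.146, beside 1.79 ± 0.182 in control middle (SD).

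The contrasts that hold control apex are given as fitted log2 changes ± SE (edgeR, n = 3 libraries each), with no test. Between cKO apex and control apex the change was 5.0 ± 0.20 for Ppbp, 3.48 ± 0.30 for Tubb1, 2.70 ± 0.43 for Clec1b, 2.27 ± 0.29 for Gp5, 1.34 ± 0.16 for Pf4, 0.88 ± 0.19 for Gp1bb and 0.17 ± 0.05 for Itga2b. Gp9, at 4.63 ± 0.55, and Gp6, at 3.59 ± 0.93, rest on 3 and 1 summed counts in control apex. A log2 change of at least 1 was reached upward by 7 of 9 members and by 1.83% of all tested genes, and the member median was 2.70 where that of all genes was 0.00. In control apex relative to control base 7 of 9 members were past that fold downward, where 3.59% of all tested genes were, with a member median of -2.73. In control apex relative to control middle 8 of 9 members were past it downward, where 3.6% of all tested genes were, with a member median of -3.76 and Itga2b alone short of the fold at -0.32 ± 0.05. These 3 contrasts share the control apex libraries, and nothing is read from their counts.

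The question the design leaves for a test is whether the members differ between pools that the rule did not use. A gene was called at an edgeR adjusted p under 0.05 with an absolute log2 change of at least 1. Ppbp was left out, so 8 members were tested, with p-values adjusted over all 17901 genes. Gp6 passed the filter on low counts through only 4 libraries, 2 of control middle and 2 of cKO base, and so entered the tests through the pools where it was high. Its changes are given as values with no p, and the members are counted without it. Several contrasts use the control middle libraries and are not independent of each other.

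In the middle, 3 of 7 members fell in the cKO relative to control, where 0.575% of all tested genes fell, and all 7 changes were negative with a median of -0.91 beside 0.00 for all genes. Tubb1 fell by 1.67 ± 0.17 on the log2 scale (edgeR adjusted p = 6.22e-10) and Gp9 fell by 1.35 ± 0.25 (edgeR adjusted p = 3.95e-05). Gp5 changed by -1.10 ± 0.19 (edgeR adjusted p = 1.04e-05), and was not called without cKO middle replicate 1, at -0.99. Without cKO middle replicate 1 the count was thus 2 of 7. DESeq2 called 3 of 7, and limma on log2(FPKM + 1), a scale that shrinks the change of low genes, called 1 of 7. Pf4 at -0.91 ± 0.11, Clec1b at -0.87 ± 0.23, Gp1bb at -0.51 ± 0.15 and Itga2b at -0.43 ± 0.05 did not reach the fold. Gp6 was at -1.09 ± 0.43. Osteoblast and bone matrix genes moved in the same contrast, with 3 of 6 higher in the cKO, all 6 changes positive and a median of 1.15, among them Ibsp, bone sialoprotein, at 1.55 ± 0.03 and Col1a1, a collagen chain, at 1.44 ± 0.02 (edgeR adjusted p = 1.04e-29 and 1.42e-32). Of 6 cerebellar neuron genes 1 was higher, Zic1, at 1.39 ± 0.07 (edgeR adjusted p = 1.01e-17). Their part in the platelet values was not tested.

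In the base, 0 of 7 members were called between cKO and control by edgeR or by DESeq2, where edgeR called 3.03% of all tested genes. At an unadjusted p under 0.05 edgeR gave 2 of 7. The share of all tested genes at that p is not given, and without a fold threshold a large part of them is called. Nothing is read from counts at an unadjusted p, here or for the lists below. The median change was 0.29, beside -0.02 for all genes, and 6 of 7 members were positive. Gp1bb was at 0.84 ± 0.18 (edgeR adjusted p = 0.000297), short of the fold. Gp6 was at 1.18 ± 0.48. The cerebellar neuron genes that were high in cKO base moved with this comparison, and their part in it was not tested.

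Between the regions of the control, 6 of 7 members were higher in control middle than in control base, where 1.53% of all tested genes were, with a median of 1.06 beside 0.00 for all genes. Gp5 was higher by 1.48 ± 0.20 (edgeR adjusted p = 3.06e-07) and Gp9 by 1.29 ± 0.26 (edgeR adjusted p = 0.000137), and both calls held when any of the 6 libraries was left out. Tubb1 at 1.09 ± 0.17, Pf4 at 1.06 ± 0.11, Gp1bb at 1.04 ± 0.17 and Clec1b at 1.03 ± 0.24 lay so close to the fold that leaving out a library could end the call. Pf4 was at 0.99 without control base replicate 1. Tubb1 was at 0.94 without control base replicate 2 and at 0.997 without control middle replicate 2, and Gp1bb was at 0.91 without control base replicate 2 and at 0.995 without control middle replicate 3. Clec1b was at 0.92 without control base replicate 3 and at 0.99 without control middle replicate 1 or 3. Gp6 was at 1.27 ± 0.46 and Itga2b at 0.25 ± 0.05. DESeq2 called 6 of 7, and limma on log2(FPKM + 1) called 0 of 7.

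**Figure D3:**
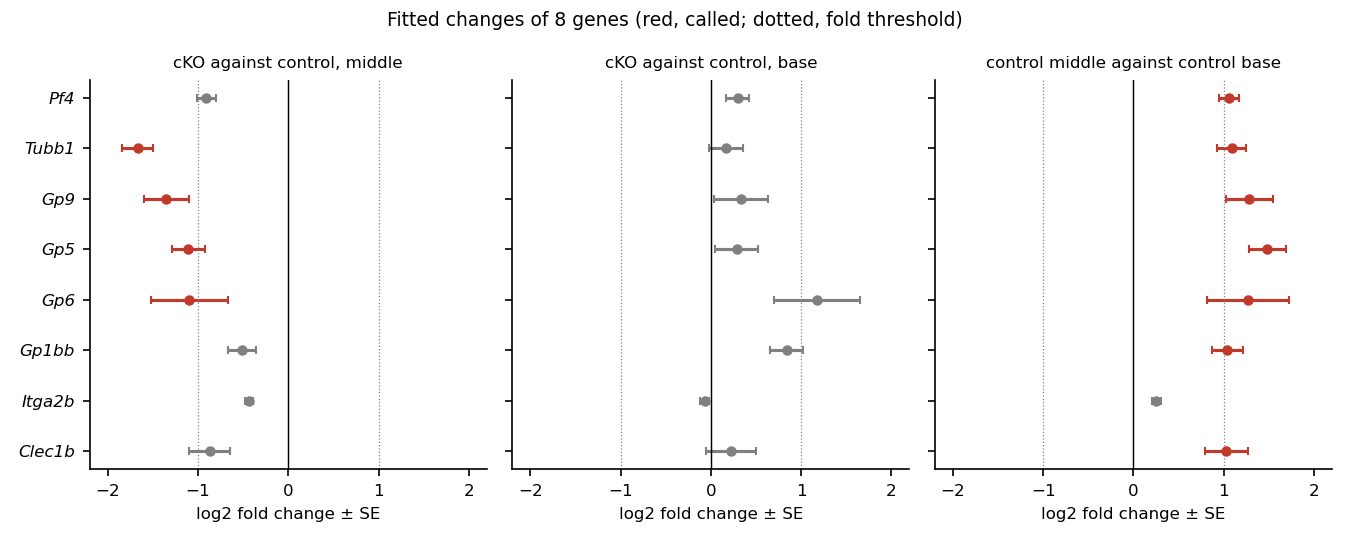
Fitted log2 change with its SE (horizontal axis) of 8 genes in 3 contrasts, with called genes in red, Gp6 included, and dotted lines at the fold threshold. Counted without Gp6, all 7 points lie left of 0 in the middle (cKO below control). In the base 6 of 7 lie right of 0 and none is red, while Gp6, also not red, lies past the dotted line at 1.18. In control middle relative to control base 6 of 7 are red.

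Within the cKO no member was called between regions. Between cKO apex and cKO base, cKO apex and cKO middle, and cKO middle and cKO base, 0 of 7 members were called by edgeR or by DESeq2, where edgeR called 6.6%, 4.6% and 3.26% of all tested genes. At an unadjusted p under 0.05 edgeR gave 2 of 7 in each, with no share of all genes beside it, and nothing is read from that. Tubb1 was at 0.90 ± 0.19 in cKO apex relative to cKO middle (edgeR adjusted p = 0.000184), under the fold. Gp6 was at -1.03 ± 0.47 in cKO apex relative to cKO base and at -0.9993 ± 0.44 in cKO middle relative to cKO base.

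The genotype effect in the middle was then compared with that in the base by an interaction contrast. For 6 of 7 members the effect in the middle was lower, where this held for 2.54% of all tested genes, with a median difference of -1.35 beside 0.01 for all genes. Tubb1 differed by -1.84 ± 0.26 (edgeR adjusted p = 4.84e-07), Gp9 by -1.69 ± 0.39 (edgeR adjusted p = 0.000746) and Pf4 by -1.20 ± 0.17 (edgeR adjusted p = 3.02e-07). Itga2b, at -0.37 ± 0.07, was the member short of the fold. Clec1b, at -1.09 ± 0.36 (edgeR adjusted p = 0.0167), was not called without cKO base replicate 1, cKO middle replicate 2 or control base replicate 3, at -0.96, -0.93 and -0.98. DESeq2 called 5 of 7 and limma on log2(FPKM + 1) called 3 of 7. Gp6 was at -2.27 ± 0.64. Of the 6 osteoblast and bone matrix genes 3 were higher in this contrast, and 5 of the 6 cerebellar neuron genes were lower. Among the cerebellar genes, Gabra6 passed the filter on low counts only through 3 libraries of cKO base. Pcp2 passed it through 3 of cKO base and 1 of control base. Both entered the tests through the pool where they were high, so nothing is read from the cerebellar count.

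The other genes of platelets were read from lists that do not hold the members. Of 14 further genes for platelet receptors and signalling, 3 were called lower in cKO middle than in control middle, with a list median of -0.54. Treml1, a receptor stored in the alpha granule membrane, at -1.40 ± 0.21 (edgeR adjusted p = 1.28e-06), and F2rl2, a thrombin receptor, at -1.10 ± 0.29 (edgeR adjusted p = 0.00273), which was not called without cKO middle replicate 1, at -0.99, were among them. The third was Cd226, an adhesion receptor also found on lymphocytes, at -1.71 ± 0.47, which passed the filter through 3 libraries of control middle and 1 of cKO base and from which nothing is read. Treml1 and F2rl2 were also higher in control middle than in control base, by 1.40 ± 0.22 and 1.18 ± 0.31, Cd226 was at 1.36 ± 0.47, and the list median was 0.65. Between cKO base and control base none of the 14 was called by edgeR or DESeq2, with 6 at an unadjusted edgeR p under 0.05 and a list median of 0.32. In the interaction contrast 7 of the 14, Cd226 among them, were lower by edgeR and 6 by DESeq2. There edgeR had 2.54% of all tested genes lower, and the list median was -0.87. The receptor partners of the members, named after their values were seen, were at -0.58 ± 0.15 for Gp1ba and -0.49 ± 0.06 for Itgb3 in cKO middle relative to control middle, short of the fold.

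Of 9 further granule protein genes, 0 were called by edgeR or DESeq2 between cKO and control in the middle or the base, or between control middle and control base, with 7, 4 and 8 at an unadjusted edgeR p under 0.05. In the interaction contrast 3 of the 9 were lower by edgeR and 2 by DESeq2, where edgeR had 2.54% of all tested genes lower. The list median there was -0.19. Several genes of this list are shared with other cells: Vwf, von Willebrand factor, and Thbs1, thrombospondin, are also made by endothelium. Vwf averaged 23.0, 28.7 and 29.1 CPM in cKO apex, middle and base, against 23.2, 31.3 and 28.0 CPM in control apex, middle and base. Mmrn1, a granule protein that binds factor V, had 0.818, 0.592 and 0.851 CPM in cKO apex, 0.953, 1.36 and 0.830 in cKO middle and 1.31, 1.5 and 1.5 in cKO base, against 0.0699, 0.0348 and 0.0695 CPM in control apex, 1.66, 1.72 and 1.73 in control middle and 1.09, 0.907 and 0.695 in control base. Its control apex libraries were below all others, as for 7 of the 9 genes of this list, 8 of the 14 receptor genes and 6.84% of all tested genes. The same held for 12 of 12 red blood cell genes, 6 of 6 osteoblast and bone matrix genes, 8 of 14 neutrophil genes and 4 of 9 macrophage genes. It held for 1 of 11 B cell progenitor genes and 0 of 7 endothelial genes. The trait was thus not particular to platelet genes.

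Transcription and growth factor genes of megakaryocytes are shared in large part with erythroid precursors. Of 9, none was called between cKO middle and control middle by edgeR or DESeq2, with 9 at an unadjusted edgeR p under 0.05 and a median of -0.37. In the base 4 rose in the cKO relative to control, among them Nfe2, a factor needed for platelet release, by 1.49 ± 0.15 (edgeR adjusted p = 2.06e-10), Gfi1b, a repressor of both lineages, by 1.44 ± 0.27 (edgeR adjusted p = 4.98e-05), and Gata1 by 1.26 ± 0.20 (edgeR adjusted p = 2.04e-06). In control middle relative to control base 5 were higher, Nfe2 by 1.56 ± 0.14, Gata1 by 1.40 ± 0.19 and Gfi1b by 1.34 ± 0.27 among them. In the interaction contrast 5 of 9 were lower, with a median of -1.42. Fli1, an ETS factor that endothelium also expresses, stayed under the fold in both, at -0.11 ± 0.04 in cKO base relative to control base and -0.13 ± 0.04 in control middle relative to control base.

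Markers of other marrow and blood cells moved with the regions too. The summed level of 12 genes of red blood cells and erythroblasts was 946 to 962 CPM in cKO apex, 1029 to 1034 in cKO middle and 1626 to 1644 in cKO base, against 390 to 398 CPM in control apex, 1045 to 1051 in control middle and 556 to 557 in control base. Of these, 0 of 12 were called in cKO middle relative to control middle by edgeR or DESeq2 (10 at an unadjusted edgeR p under 0.05), 12 of 12 were higher in cKO base than in control base, and 8 of 12 were higher in control middle than in control base. The 14 genes of neutrophils and their precursors summed to 147 to 151 CPM in cKO apex, 265 in cKO middle and 352 to 355 in cKO base, against 91.3 to 93.1 CPM in control apex, 304 to 306 in control middle and 109 to 113 in control base. None of the 14 was called in the middle by edgeR or DESeq2 (10 at an unadjusted edgeR p under 0.05), 14 of 14 were higher in cKO base than in control base, and 14 of 14 were higher in control middle than in control base. S100a9, a calcium-binding protein of neutrophils, was at -0.04 ± 0.03, 1.80 ± 0.03 and 1.41 ± 0.03 in these contrasts. No gene of either list was at 0 in any pool. All 3 sets summed lowest in control apex, but the platelet members summed highest in control middle, and the other 2 sets summed highest in cKO base. Of the member sum of 19.6 CPM in control apex, Itga2b made up 16.1 CPM. In control middle Itga2b made up 19.4 and Ppbp 16.6 of 56.5 CPM. The member sum in these pools thus rests largely on a gene that did not follow and on the gene that was chosen, and nothing is read from its order. The part of red blood cells and neutrophils in the platelet results was not tested.

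Beside the platelet genes, macrophage genes (9) summed to 143 to 145 CPM in cKO apex, 167 to 170 in cKO middle and 191 to 199.8 in cKO base, against 133 to 136, 179 to 181 and 172 to 177 CPM in control apex, middle and base. Genes of B cell progenitors (11) summed to 20.2 to 20.5, 23.5 to 24.3 and 19.1 to 20.9 CPM in cKO apex, middle and base, against 19.5 to 20.4, 31.5 to 33.6 and 23.9 to 26.0 CPM in the control regions in the same order. Endothelial genes (7) summed to 392.4 to 404, 352 to 363 and 357 to 361 CPM in the cKO regions, against 438 to 442, 354 to 364 and 374 to 378 CPM in the control regions. The high sum in control apex came from Emcn, an endothelial sialomucin, at 0.85 ± 0.02 relative to control middle, whereas 5 of the 7 changes were negative, Pecam1 at -0.33 ± 0.04 and Cdh5 at -0.35 ± 0.03 among them, with a median of -0.24. Osteoblast and bone matrix genes (6) summed to 269 to 271, 582 to 595 and 499 to 502 CPM in the cKO regions, against 156 to 160, 263 to 265 and 807 to 822 CPM in the control regions. Genes of mast cells and early progenitors (9) summed to 190 to 198, 188 to 197 and 195 to 197 CPM in the cKO regions, against 159 to 163, 145 to 154 and 169 to 176 CPM in the control regions. Only 3 of the 9, Kit, Gata2 and Cd34, passed the filter on low counts, so these sums rest on them and not on the mast cell markers. Of the mast cell markers, Fcer1a was at 0 in every pool but control base, Mcpt4 in the cKO pools and Cma1 in control apex. As a share of control middle, the list median in control apex was 7.30% for the members, 40.7% for the further receptor genes, 65.4% for granule proteins, 36.1% for the transcription factors, 25.5% for red blood cells, 27.0% for neutrophils, 47.9% for B cell progenitors, 73.0% for macrophages and 86.9% for endothelium. The rule used control apex and the member median includes Ppbp, so nothing is read from the place of the members among these lists.

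**Figure D4:**
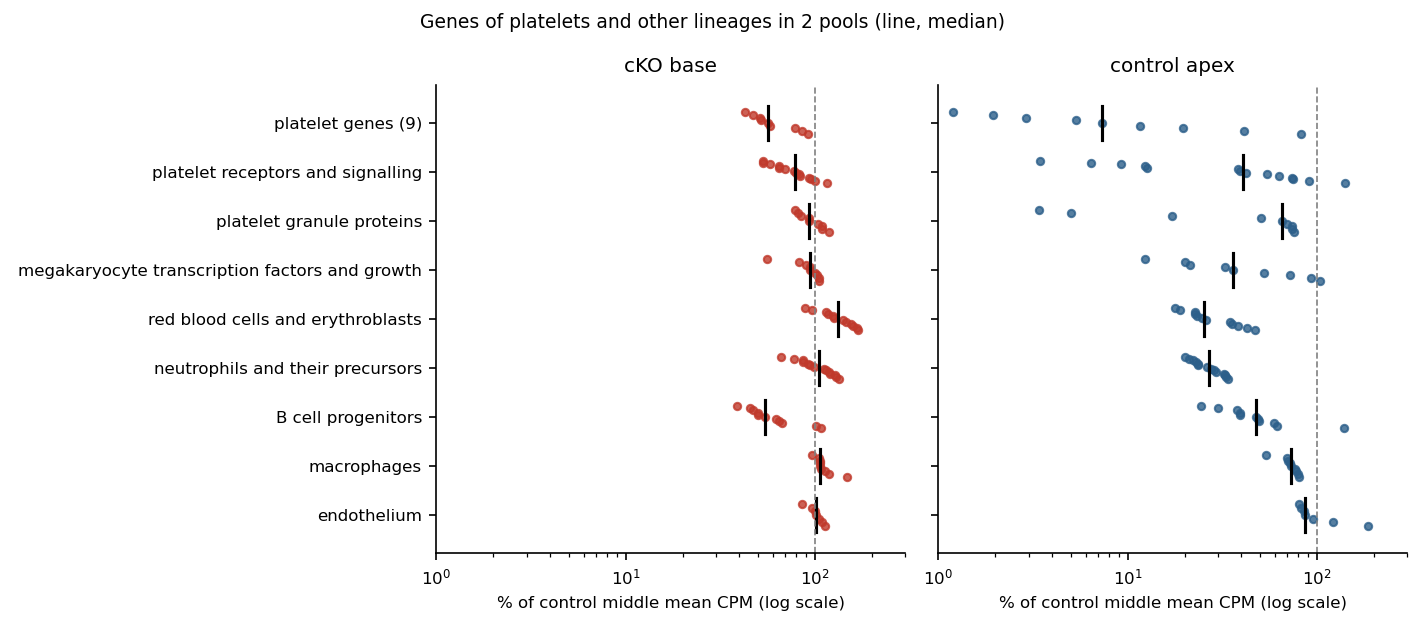
Each point is the mean CPM of a gene in cKO base (left) or control apex (right) as a percentage of its control middle mean, on a log axis, by list, with a vertical line at the list median and a dashed line at 100%. The member median is 56.6% in cKO base and 7.30% in control apex, and that of endothelium is 101% in cKO base and 86.9% in control apex. The rule used control apex for Ppbp, which is among the members, so nothing is read from their median there.

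Set against the red blood cell list, Ppbp came to 6.67 ± 0.256 CPM per 1000 CPM of the list in cKO apex, 6.45 ± 0.455 in cKO middle and 4.79 ± 0.151 in cKO base, against 0.503 ± 0.209 in control apex, 15.9 ± 0.844 in control middle and 12.5 ± 1.16 in control base (SD, n = 3 libraries). Against the neutrophil list the ratio was 42.5 ± 1.91 in cKO apex, 25.1 ± 1.76 in cKO middle and 22.2 ± 0.859 in cKO base, against 2.15 ± 0.887 in control apex, 54.5 ± 3.11 in control middle and 62.8 ± 6.46 in control base. The highest pool was thus control middle by the red blood cell list and control base by the neutrophil list. Ppbp was chosen for its near absence from control apex, so the low ratios there restate that choice.

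Across the 6 summed pools, the level of Ppbp on the log2(CPM + 0.5) scale correlated with Clec1b at Pearson r = 0.98, Gp9 at 0.97, Pf4 at 0.96, Tubb1 at 0.96, Gp5 at 0.92, Gp6 at 0.88, Gp1bb at 0.80 and Itga2b at 0.32. The points share pools and library totals, and control apex, for which Ppbp was chosen, is its extreme point, so the values are a description only. Among 1647 other genes that span at least 1 on that scale, the most like Ppbp were P2rx1, an ATP-gated channel of platelets, at 0.98, Mmrn1 and Nrgn at 0.97, Rgs18, a regulator of G protein signalling in platelets, at 0.96 and Treml1 at 0.95, followed by Slc4a10, Kcnj5, Slc4a11, Gm5089 and Itgb3. Treml1 was the most like the mean profile of the other 8 members, at 0.98, ahead of genes that included Fermt3, P2rx1, Nrgn, Itgb3, Kcnj5, Rgs18, Cd37 and Pbk. P2rx1 averaged 0.803 ± 0.169, 0.712 ± 0.223 and 1.02 ± 0.158 CPM in cKO apex, middle and base, against 0.151 ± 0.0537, 1.22 ± 0.208 and 0.743 ± 0.146 CPM in control apex, middle and base.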

How the data were processed

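Library preparation used the TruSeq RNA Sample Prep Kit v2, and Ribo-Zero removed ribosomal RNA, as the labels' protocols state. Per the submitters' processing notes, STAR 2.5.2b and Cuffdiff 2.2.1 were used with GRCm38/mm10; the step that made the counts is not given in the sources used here. The authors' table holds expected counts (estimated counts, of which 89.2% to 89.9% per library are whole within 1e-06) and FPKM per library, both as deposited by the authors. All 18 count columns were used, rounded, and 0 rows lacked a gene name.

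CPM is the count over the library total. The tests used edgeR 4.0.16 in R 4.3.3 (filterByExpr, TMM, quasi-likelihood F tests, two-sided, Benjamini-Hochberg over 17901 genes) with the 6 groups fitted together (12 residual degrees of freedom), tested on simulated data. TMM factors ran from 0.977 to 1.03. Alternatives were DESeq2 1.42.0, limma 3.58.1 on log2(FPKM + 1) or log2(FPKM + 0.1), other size factors, no filter, no fold threshold, a replicate block and leaving out each library. Library pairs of a pool differed by a chi-square per degree of freedom of 1.19 to 1.59 and were kept apart. A count of 0 allows up to 3 counts, 0.0889 to 0.123 CPM. Intervals cover counting error only, since reads carry no molecular identifiers. Positions are from GENCODE on GRCm38, promoters from RefSeq.

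The 9 members and the gene lists were chosen with earlier results of these data known. The rule for named genes took all members, up to 4 genes per list by mean CPM, up to 3 called genes per list by size of change, and the 10 genes most like each profile. Not every gene it allows is named, 1 is not reported here, and genes at 0 and some markers were named after their values were seen. Counting the members without Gp6 was chosen after seeing the data. Of 108 listed genes 107 were found.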

Additional observations from a re-analysis of the deposited data

Results flagged for a closer look

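The genotype effect (cKO relative to control) was compared between the middle and the base by an interaction contrast over the 4 pools. The difference, middle minus base, was past an edgeR adjusted p of 0.05 for all 7 members counted without Gp6. A large part of all tested genes is called without the fold threshold, as given below, so nothing is read from that count. With the fold threshold 6 of 7 members were lower, where 2.54% of all tested genes were. The log2 difference was -1.20 ± 0.17 for Pf4, -1.84 ± 0.26 for Tubb1, -1.69 ± 0.39 for Gp9, -1.39 ± 0.31 for Gp5, -2.27 ± 0.64 for Gp6, -1.35 ± 0.24 for Gp1bb, -1.09 ± 0.36 for Clec1b and -0.37 ± 0.07 for Itga2b (SE, n = 3 libraries of 1 pool each). The value of Itga2b was under the fold threshold. Gp6 passed the filter on low counts through 2 libraries each of control middle and cKO base, the pools where it was high, so nothing is read from its value. Clec1b was not called without cKO base replicate 1, cKO middle replicate 2 or control base replicate 3, at -0.96, -0.93 and -0.98. In the same contrast 12 of 12 genes of red blood cells and 14 of 14 genes of neutrophils were lower, with list medians of -1.85 and -2.04, and their part in the platelet values was not tested.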

How the results depend on the processing

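Each group is 1 pool, so no setting below measures spread between animals, and members with few counts (Gp6, Gp9, Clec1b) are limited by depth. Member counts here include Gp6, which entered the tests through the pools where it was high, so nothing is read from its part in them. Without it, a choice made after seeing the data, they were 3, 6 and 6 in cKO against control middle, control middle against control base and the interaction, where they were 4, 7 and 7 with it. Without the fold threshold, members called were 8 in cKO against control middle (4 with it), 1 in cKO against control base, 1 in cKO apex against cKO base, 2 in cKO apex against cKO middle and 1 in cKO middle against cKO base (0 with it in each), and the genes called ran from 5647 to 9895; the 3 contrasts with control apex have no such value. With limma on log2(FPKM + 1), with or without the filter, members called were 1 in cKO against control middle, 0 in control middle against control base (7 by edgeR) and 3 in the interaction (7 by edgeR), and members past the fold were 4 in cKO against control apex (7), 3 in control apex against control base (7) and 5 in control apex against control middle (8). With log2(FPKM + 0.1) they were 2 in cKO against control middle and 4 in control middle against control base. A pseudocount shrinks the change of low genes by construction. Genes called by limma at a pseudocount of 1, with the filter, ran from 84 to 310 over the tested contrasts, where edgeR called 487 to 1182; without the filter they ran from 90 to 311, and at 0.1 they were 313 in cKO against control middle and 295 in control middle against control base. Past the fold, limma had 49, 255 and 204 genes in cKO against control apex, control apex against control base and control apex against control middle (123, 332 and 273 without the filter). Without the filter on low counts, 4772, 5610 and 5423 genes were past the fold in the 3 contrasts with control apex, where 479, 1090 and 1068 were with it.

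Leaving out a library gave 2 to 4 members called in cKO against control middle, 0 to 1 in cKO against control base, in cKO apex against cKO base and in cKO middle against cKO base, 5 in control middle against control base, and 6 to 7 in the interaction; the cause was not tested. Signs turned only for uncalled changes near 0. In cKO apex against cKO base Gp9 ran from -0.13 to 0.12, with -0.081 between. In cKO apex against cKO middle Pf4 ran from -0.27 to 0.0038, and Gp6 from -0.36 to 0.23, with 0.17 without cKO middle replicate 1 or 3. In cKO middle against cKO base Gp5 ran from -0.046 to 0.25, with -0.034 between, and Clec1b from -0.17 to 0.10, with 0.073 between.

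Same-numbered libraries did not deviate together (r from -0.0326 to 0.0463 over 45 pairs), so the numbers do not pair the samples. A replicate block left the member counts at 4, 0 and 7 in cKO against control middle, cKO against control base and control middle against control base, and changed none of the counts in the other contrasts.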
